A study of Homo sapiens with 6 samples.

Results

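The genes described here encode the proteasome: 50 protein-coding genes whose symbols start with PSMA, PSMB, PSMC, PSMD, PSME, PSMF or PSMG followed by a number, out of 58395 genes in the deposited expression table (19815 of them protein-coding). They include the 5 interferon-inducible genes PSMB8, PSMB9, PSMB10, PSME1 and PSME2, which are set here against the other 45. Their expression was measured by RNA sequencing in 786-O, an established human cell line from a renal cell adenocarcinoma, kept in RPMI-1640 with fetal bovine serum. The sgControl group (3 libraries) is labelled as the control, and in the sgPLOD2 group (3 libraries) PLOD2, which encodes a lysyl hydroxylase that modifies collagen, was knocked out by CRISPR/Cas9. Both groups shared the line and the medium. The labels give neither the guide sequences nor whether the cells were a clone or a pool, nor whether each replicate came from its own culture. The p-values thus reflect variation among these 6 libraries, part or all of which may be technical. PLOD2 was read at 26.8, 25.7 and 21.5 FPKM in sgControl replicates 1 to 3 and at 5.98, 10.1 and 6.64 FPKM in sgPLOD2, with no overlap (log2 fold change -1.61 ± 0.18 SE, adjusted p = 0.000509, limma). An exact permutation test, 2-sided, gave its smallest possible p, 0.1. FPKM is a read count corrected for the length of the gene and for the size of the library.

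The proteasome degrades ubiquitin-tagged proteins. Its barrel-shaped core particle stacks rings of alpha subunits (PSMA genes) outside rings of beta subunits (PSMB genes), and PSMB5, PSMB6 and PSMB7 carry the cutting sites. A regulatory particle of ATPases (PSMC genes) and non-ATPase subunits (most PSMD genes) binds, unfolds and feeds in the substrate. After interferon exposure many cells make PSMB8, PSMB9 and PSMB10, which replace PSMB5, PSMB6 and PSMB7 in newly built cores and favour peptides that fit class I HLA molecules, and PSME1 with PSME2, which form an activator cap. Proteasome genes are also known to be induced together by the transcription factor NRF1 (gene NFE2L1) when proteasome activity is short.

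The interferon-inducible members differ in the response motifs before their start sites, and the stretches that carry them are shown because the group is named for that response. RefSeq promoter entries on GRCh38.p14 were found for 42 of 48 proteasome members, and 4 motifs were searched on both strands in the 250 bases before each start. The core of the interferon-stimulated response element (GAAA, then 2 bases of any kind, then GAAA) was present for 2 of the 5 inducible genes (PSMB10 and PSME2), for 3 of 37 other proteasome genes (PSMA4, PSMB4 and PSMG4) and for 3.71% of 27305 genes with an entry. The gamma-activated site TTCNNNGAA was found for PSMB8 alone among the inducible genes, for 6 of 37 others and for 8.09% of all genes. The antioxidant response element core TGACNNNGC was found for PSMB9, PSME1 and PSME2, for 10 of 37 others and for 13.2% of all genes. A kappa B type motif (GGG, then 3 bases of any kind, then TTCC) was found for 0 of 5 inducible genes, 4 of 37 others and 6.87% of all genes. The stretches below run 5′ to 3′ on the gene's strand, 30 bases each, with the matched motif in capitals. The matches printed do not overlap each other.
PSMB10, chr16:67936852-67936881, minus strand, interferon-stimulated core: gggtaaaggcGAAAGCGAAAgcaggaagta
PSME2, chr14:24146619-24146648, minus strand, interferon-stimulated core: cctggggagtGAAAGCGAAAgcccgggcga
PSMG4, chr6:3258904-3258933, plus strand, interferon-stimulated core: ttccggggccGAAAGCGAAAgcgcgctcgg
PSMB4, chr1:151399495-151399524, plus strand, interferon-stimulated core: tcgtctacagGAAAAAGAAAgaaatgacac
PSMA4, chr15:78540155-78540184, plus strand, interferon-stimulated core: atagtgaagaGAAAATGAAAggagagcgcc
PSMB8, chr6:32844093-32844122, minus strand, gamma-activated site: aactgtccttTTCTCGGAAaaggcaggggg
PSMB9, chr6:32854034-32854063, plus strand, antioxidant core read on the opposite strand: gggcggggctGCCTCGTCActtgtctcggg
PSME1, chr14:24136098-24136127, plus strand, antioxidant core: atggcagggcTGACCCCGCctcctccatcc
PSMB10, PSME2 and the assembly chaperone PSMG4 share the same 10 letters, GAAAGCGAAA. The stretches of PSMB8, PSMB9, PSME2 and PSMG4 lie inside the wider gene spans of the deposited table, because RefSeq places the start elsewhere. A match describes letters in a window, and binding was not measured.

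In sgPLOD2 the proteasome genes did not move as a block. Of the 50, the core alpha subunit of sperm cells, PSMA8, and the thymic beta subunit, PSMB11, were listed at 0 in every library and were not tested. The other 48 averaged 1 FPKM or more across the 6 libraries. Of these, 9 were higher and 12 were lower in sgPLOD2 at a Benjamini-Hochberg adjusted p under 0.05 (limma on log2(FPKM + 1), adjusted over 10469 genes; such genes are termed called), and 27 passed in neither direction. The share called was 43.8% of the members, against 52.9% of all genes tested. By direction, 18.8% of the members were called higher against 29.5% of all genes, and 25% lower against 23.5%. Their median log2 fold change was 0.01, and that of all genes tested was 0.06. FPKM values of the 2 groups did not overlap for 28 of the 48, against 62.7% of all genes. With every library rescaled to the same total (TPM), 66.8% of all calls were in the higher direction instead of 55.7%, and the members then had 13 called higher (all genes 35.1%) and 7 lower (17.5%; either direction 52.5%). With median-of-ratios scaling the balance was the opposite, with 6 members higher (all genes 24.5%) and 16 lower (27.6%; either direction 52.2%). The members' counts also rested on single libraries: 7 higher and 6 lower without sgPLOD2 replicate 2 (40.2% of all genes called), 7 and 7 without sgControl replicate 3 (44.3%), and 7 and 8 without sgPLOD2 replicate 3 (43.2%).

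**Figure D1:**
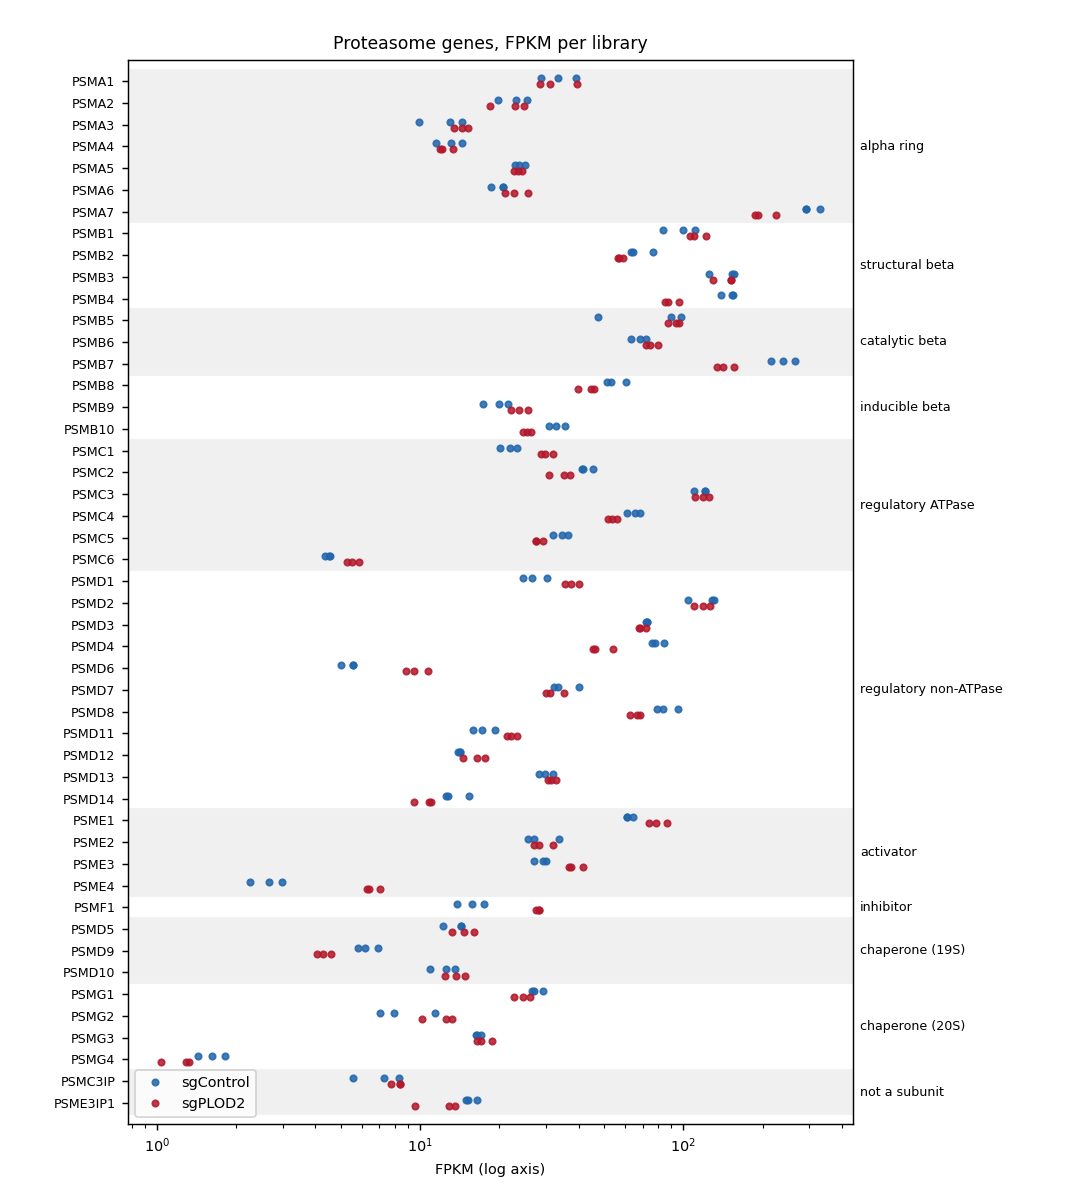
FPKM of the 48 tested genes (log axis) in each of 3 sgControl (blue) and 3 sgPLOD2 (red) libraries, grouped by role in the complex. Core subunits span from about the level of PSMA3 and PSMA4 to that of PSMA7, whose sgPLOD2 libraries lie below all of its sgControl libraries.

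The 5 interferon-inducible genes split: PSME1 was higher, PSMB8 and PSMB10 were lower, and PSMB9 and PSME2 passed in neither direction. That is 20% higher and 40% lower, against 18.6% and 23.3% of the other 43 tested and 29.5% and 23.5% of all genes. PSMB8 (chr6:32840717-32844679), the inducible chymotrypsin-like subunit, stood at 53.3, 51.4 and 60.5 FPKM in sgControl and at 45.6, 39.8 and 44.6 FPKM in sgPLOD2. All 3 sgPLOD2 libraries lay below all 3 of sgControl (log2 fold change -0.34 ± 0.10 SE, adjusted p = 0.0229). The call was lost without sgControl replicate 3 (adjusted p = 0.0796) and without sgPLOD2 replicate 2 (0.0844), and also with TPM or quantile scaling or after removal of a trend on GC content and length. PSMB10 (chr16:67934506-67936864), the inducible trypsin-like subunit, stood at 32.9, 30.9 and 35.7 FPKM in sgControl and at 26.3, 24.6 and 25.4 FPKM in sgPLOD2. Its groups did not overlap either (-0.37 ± 0.08, adjusted p = 0.00941), but the difference was +0.03 (adjusted p = 0.762) once the trend on GC content and length was taken out, and -0.12 (adjusted p = 0.284) with each chromosome's median fold change removed.

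PSMB9 (chr6:32844136-32859851), the inducible subunit that takes the place of PSMB6, lies beside PSMB8 in the class II region of the HLA locus. It stood at 17.3, 19.9 and 21.6 FPKM in sgControl and at 25.7, 22.1 and 23.8 FPKM in sgPLOD2. The sgPLOD2 libraries all lay above those of sgControl, yet the difference of 0.27 ± 0.11 missed the threshold (adjusted p = 0.0646, 95% interval 0.02 to 0.52). It passed with TPM (with or without mitochondrial and ribosomal protein genes) and with quantile scaling. Within each library the share of PSMB9 in the summed FPKM of PSMB8 and PSMB9 was 24.6%, 27.9% and 26.3% in sgControl and 36.0%, 35.7% and 34.8% in sgPLOD2. The log2 ratio of PSMB9 to PSMB8 was 0.61 higher in sgPLOD2; this pair was chosen after its values were seen and is given without a test. PSMB8 overlaps PSMB9 and the antisense gene PSMB8-AS1, and PSMB9 overlaps TAP1. PSMB8-AS1 was listed at 1.73 to 1.89 FPKM in sgControl and at 0.928 to 1.56 FPKM in sgPLOD2. The strand setting of the counting is not given in the sources used here, so reads in the overlaps cannot be told apart.

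PSME1 (chr14:24136163-24138967) and PSME2 (chr14:24143362-24147570), the subunits of the same activator ring, lie 4.4 kb apart on chromosome 14. PSME1 stood at 60.8, 60.9 and 64.1 FPKM in sgControl and at 86.7, 74.1 and 79.0 FPKM in sgPLOD2, with no overlap (0.36 ± 0.09, adjusted p = 0.0110). PSME2 stood at 25.7, 27.1 and 33.6 FPKM in sgControl and at 32.0, 27.0 and 28.3 FPKM in sgPLOD2. Its groups overlapped, and the difference was 0.02 ± 0.12 (adjusted p = 0.905, 95% interval -0.27 to 0.30). PSME1 made up 68.4% ± 2.4 (SD, n = 3) of the pair's FPKM in sgControl and 73.3% ± 0.27 (SD, n = 3) in sgPLOD2. Expressed genes on chromosome 14 had a median log2 fold change of 0.54. With each chromosome's median removed, PSME1 was at -0.18 (adjusted p = 0.121) and PSME2 at -0.52 (adjusted p = 0.0113), so both signs changed. The same median was taken from both genes, so the order of the pair could not change. PSME1 also missed the threshold with median-of-ratios scaling (adjusted p = 0.0548).

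The inducible catalytic subunits were then set against the constitutive subunits whose places they take. PSMB5 stood at 47.3, 89.5 and 98.1 FPKM in sgControl and at 96.0, 87.2 and 93.8 FPKM in sgPLOD2. Only sgControl replicate 1 was low (0.30 ± 0.26, adjusted p = 0.350, 95% interval -0.30 to 0.90), and without it the difference was -0.02. PSMB6 stood at 68.6, 63.3 and 72.3 FPKM in sgControl and at 80.5, 72.0 and 74.9 FPKM in sgPLOD2, with a slight overlap (0.15 ± 0.09, adjusted p = 0.174, 95% interval -0.05 to 0.36). PSMB7 stood at 215, 240.0 and 265 FPKM in sgControl and at 156, 135 and 141 FPKM in sgPLOD2. Every sgPLOD2 library of PSMB7 was far below the sgControl libraries (-0.73 ± 0.11, adjusted p = 0.00140).

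PSMB8 accounted for 53.0%, 36.5% and 38.2% of the summed FPKM of PSMB8 and PSMB5 in sgControl and for 32.2%, 31.3% and 32.2% in sgPLOD2. The groups did not overlap, and the log2 ratio differed by -0.64 (exact permutation p = 0.1, adjusted p = 0.15 over 3 pairs), or by -0.34 without sgControl replicate 1. PSMB9 accounted for 20.2%, 23.9% and 23.0% of PSMB9 and PSMB6 in sgControl and 24.2%, 23.5% and 24.1% in sgPLOD2, which overlapped (log2 ratio difference 0.12, exact permutation p = 0.2, adjusted p = 0.2). PSMB10 accounted for 13.3%, 11.4% and 11.8% of PSMB10 and PSMB7 in sgControl and 14.4%, 15.5% and 15.2% in sgPLOD2, with no overlap (0.36, exact permutation p = 0.1, adjusted p = 0.15). With 3 libraries against 3 these 2-sided tests cannot go below 0.1. The PSMB10 share lay higher in all 3 sgPLOD2 libraries, while PSMB10 itself was lower and PSMB7 lower by more. Over all 6 catalytic genes the inducible share of summed FPKM was 21.9% ± 1.7 (SD, n = 3) in sgControl and 22.9% ± 0.30 (SD, n = 3) in sgPLOD2, and the values overlapped.

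**Figure D2:**
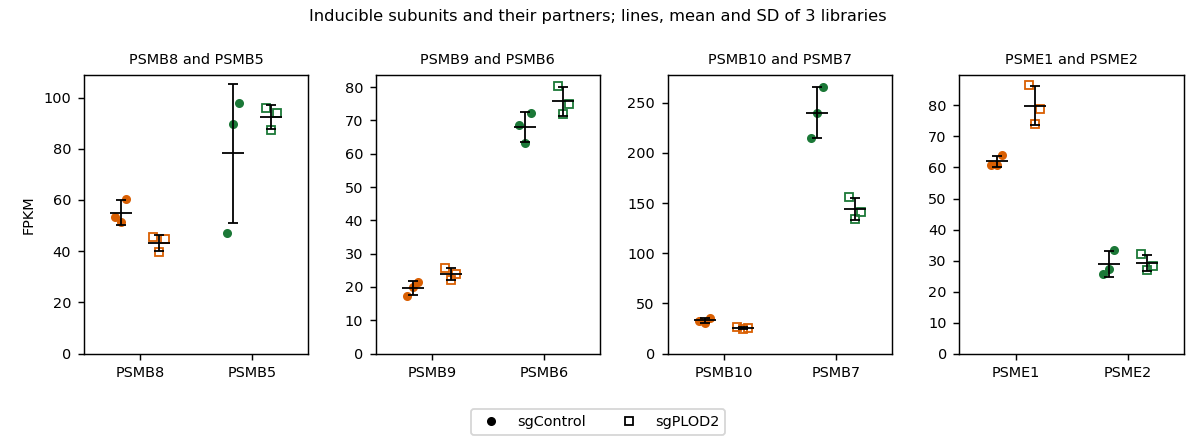
FPKM of each inducible subunit and its constitutive counterpart, and of PSME1 and PSME2, by library; filled circles are sgControl, open squares sgPLOD2, and bars the mean and SD of 3 libraries. PSMB8 and PSMB10 lie lower in sgPLOD2 and PSMB9 and PSME1 higher, while PSMB5 has a single low sgControl library at 47.3 FPKM.

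Of the 14 constitutive core subunits 3 were lower (PSMA7, PSMB4 and PSMB7) and 0 were higher, where 23.5% and 29.5% of all genes were called. PSMB6 became a call in the higher direction with TPM (also without mitochondrial and ribosomal protein genes), with quantile scaling and after removal of the GC and length trend. PSMA7 had the highest FPKM of all members, at 292, 293 and 330.2 in sgControl and at 225, 193 and 187 in sgPLOD2. It was the only called member of the alpha ring (-0.60 ± 0.10, adjusted p = 0.00284) and had the lowest fold change there. PSMA3 had the highest, at 14.5, 9.89 and 12.9 FPKM in sgControl and at 14.4, 15.3 and 13.4 FPKM in sgPLOD2, which overlapped (0.21 ± 0.14, adjusted p = 0.243). PSMA1, PSMA2, PSMA4, PSMA5 and PSMA6 ranged from -0.05 to 0.20 and none was called.

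PSMB4, a structural beta subunit without a cutting site, stood at 154, 139.6 and 154 FPKM in sgControl and at 96.0, 85.1 and 87.1 FPKM in sgPLOD2. Its sgPLOD2 mean was 60.0% of the sgControl mean, with no overlap (-0.73 ± 0.09, adjusted p = 0.000588). PSMB1 had the highest fold change of the structural beta subunits, at 83.8, 100.1 and 111 FPKM in sgControl and at 121, 106 and 110.2 FPKM in sgPLOD2. These overlapped (0.20 ± 0.12, adjusted p = 0.188). PSMB2 (-0.23, adjusted p = 0.0799) and PSMB3 (0.00, adjusted p = 0.985) were not called. PSMB2 was called lower once the GC and length trend was taken out (-0.45, adjusted p = 0.00907) and with median-of-ratios scaling (-0.33, adjusted p = 0.0259), and PSMB1 was called higher with quantile scaling (0.34, adjusted p = 0.0363).

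Summed over the 14 core subunits, FPKM was 1277 ± 87.9 (SD, n = 3) in sgControl and 1046 ± 67.8 in sgPLOD2, while the median subunit stood at 63.1 ± 5.2 and 66.7 ± 2.7 FPKM. The 3 called subunits went from 694 ± 48.5 to 435 ± 36.6 FPKM in sum, and the other 11 from 583 ± 39.6 to 611 ± 32.0 FPKM. Each alpha subunit is known to be present in equal number in the finished ring, yet their FPKM in a library differed by a factor of 25.4 to 29.6 in sgControl and 15.7 to 16.9 in sgPLOD2, from the lowest alpha subunit to PSMA7. The SD of log2 FPKM among the 14 was 1.52 to 1.55 in sgControl and 1.28 to 1.38 in sgPLOD2. Among the 11 not called it did not narrow, with a mean of 1.23 in sgControl and 1.24 in sgPLOD2. Over all genes tested, the SD of log2(FPKM + 1) also went from 1.75 to 1.64, so a narrower range was not limited to the core. Among the 3 constitutive catalytic subunits the highest FPKM was 3.67 to 4.54 times the lowest in sgControl and 1.87 to 1.94 times in sgPLOD2.

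The regulatory particle had members in both directions: of 17 subunits tested, 5 were higher (PSMC1, PSMC6, PSMD1, PSMD6 and PSMD11), 6 were lower (PSMC2, PSMC4, PSMC5, PSMD4, PSMD8 and PSMD14) and 6 were not called, against 29.5% higher and 23.5% lower among all genes. With chromosome medians removed 2 were higher and 7 lower (22.9% and 24.3% of all genes), and with TPM 6 were higher and 2 lower (35.1% and 17.5%). Among the ATPases, PSMC1 had the highest fold change, at 20.1, 23.3 and 21.9 FPKM in sgControl and at 31.9, 28.7 and 29.9 FPKM in sgPLOD2 (0.45 ± 0.09, adjusted p = 0.00490). PSMC2 had the lowest, at 45.3, 41.2 and 41.5 FPKM in sgControl and at 37.2, 35.1 and 30.8 FPKM in sgPLOD2 (-0.31 ± 0.10, adjusted p = 0.0306). Neither gene's groups overlapped. PSMC4 (-0.27, adjusted p = 0.0241) and PSMC5 (-0.28, adjusted p = 0.0264) were lower by similar amounts, PSMC6 was higher (0.26, adjusted p = 0.0321) and PSMC3 was at 0.01 (adjusted p = 0.902). These smaller calls were each lost on leaving out some single libraries. The PSMC4 call was lost when replicate 2 or 3 of sgPLOD2 or replicate 3 of sgControl was left out. PSMC2 and PSMC5 were lost on leaving out any of the same 3 libraries, PSMC2 also sgControl replicate 1 and PSMC5 also sgControl replicate 2. PSMC6 kept its call only when sgControl replicate 1 was the library left out. The highest adjusted p over these and the other settings was 0.124 for PSMC2, 0.974 for PSMC4, 0.228 for PSMC5 and 0.155 for PSMC6. With chromosome medians removed, PSMC1 was at -0.09 (adjusted p = 0.449) and PSMC6 was called in the lower direction (-0.28, adjusted p = 0.0274).

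Among the non-ATPase subunits, PSMD6 and PSMD4 lay at opposite ends. PSMD6, a scaffold subunit of the lid, stood at 5.01, 5.57 and 5.55 FPKM in sgControl and at 9.51, 10.7 and 8.81 FPKM in sgPLOD2, 180% of the sgControl mean (0.74 ± 0.10, adjusted p = 0.000935). PSMD4, a receptor for ubiquitin chains, stood at 75.9, 78.3 and 84.6 FPKM in sgControl and at 54.3, 46.3 and 45.4 FPKM in sgPLOD2, 61.1% of the sgControl mean (-0.70 ± 0.10, adjusted p = 0.00112). Neither overlapped between groups. PSMD1, a large scaffold subunit of the base, was higher (0.46, adjusted p = 0.00744), as was the lid subunit PSMD11 (0.34, adjusted p = 0.0205). PSMD8 was lower (-0.37, adjusted p = 0.0133), as was PSMD14, the enzyme that removes ubiquitin from the substrate (-0.34, adjusted p = 0.0331). PSMD14 kept its call only when sgControl replicate 2 was the library left out, PSMD11 lost it without replicate 2 or 3 of sgPLOD2 or replicate 3 of sgControl, and PSMD8 lost it without sgPLOD2 replicate 2 (highest adjusted p over all settings 0.104, 0.145 and 0.408). PSMD2, PSMD3, PSMD7, PSMD12 and PSMD13 ranged from -0.13 to 0.19 and none was called.

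The caps that can take the place of the regulatory particle, and the inhibitor, included the largest rise of all members. PSME4, a single-chain activator, stood at 2.99, 2.66 and 2.25 FPKM in sgControl and at 6.39, 7.03 and 6.27 FPKM in sgPLOD2. Its sgPLOD2 mean was 249% of the sgControl mean (1.06 ± 0.11, adjusted p = 0.000291). PSMF1, which inhibits the core particle, stood at 15.7, 13.8 and 17.5 FPKM in sgControl and at 28.4, 27.5 and 28.3 FPKM in sgPLOD2 (0.81 ± 0.10, adjusted p = 0.000685). PSME3, the nuclear activator, was higher as well (0.41 ± 0.09, adjusted p = 0.00638). With PSME1 as described above, 3 of the 4 activator genes were called higher and 0 lower (29.5% and 23.5% of all genes). With median-of-ratios scaling 2 were higher and 0 lower (24.5% and 27.6% of all genes). With chromosome medians removed 2 were higher and 1, PSME2, lower (22.9% and 24.3% of all genes).

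Of the 7 chaperones that assemble the particles, 1 was called, where 52.9% of all genes were called (29.5% higher and 23.5% lower). PSMD9, a chaperone of the regulatory particle, stood at 5.78, 6.17 and 6.89 FPKM in sgControl and at 4.58, 4.04 and 4.28 FPKM in sgPLOD2, with no overlap (-0.46 ± 0.10, adjusted p = 0.00634). PSMD10, of the same role, stood at 10.9, 13.5 and 12.5 FPKM in sgControl and at 14.9, 13.6 and 12.5 FPKM in sgPLOD2, which overlapped (0.14 ± 0.11, adjusted p = 0.312). PSMD5 was at 0.10 (adjusted p = 0.457). The core particle chaperones PSMG1 to PSMG4 had 0 of 4 called, which depended on the setting. PSMG2 stood at 11.4, 7.02 and 7.93 FPKM in sgControl and at 13.3, 12.6 and 10.2 FPKM in sgPLOD2, with an overlap through sgControl replicate 1 (0.43 ± 0.18, adjusted p = 0.0796). PSMG4 was the member of lowest level tested, at 1.62, 1.43 and 1.82 FPKM in sgControl and at 1.29, 1.32 and 1.03 FPKM in sgPLOD2. Its groups did not overlap (-0.24 ± 0.10, adjusted p = 0.0697). PSMG1 (-0.17, adjusted p = 0.146) and PSMG3 (0.06, adjusted p = 0.557) were closer to 0. Once the GC and length trend was taken out, PSMG2 (0.59, adjusted p = 0.0313) and PSMG3 (0.44, adjusted p = 0.00533) were called higher and PSMG4 lower (-0.33, adjusted p = 0.0280). With chromosome medians removed, PSMG1 (-0.27, adjusted p = 0.0406) and PSMG4 (-0.59, adjusted p = 0.00263) were called lower. PSMG2 was also called higher without sgControl replicate 1 (0.61, adjusted p = 0.00745). The other matches of the name rule, PSMC3IP and PSME3IP1, encode interacting proteins and not subunits. PSMC3IP stood at 5.55, 7.29 and 8.27 FPKM in sgControl and at 8.37, 8.38 and 7.74 FPKM in sgPLOD2 (0.20 ± 0.14, adjusted p = 0.243). PSME3IP1 stood at 16.4, 15.2 and 15.0 FPKM in sgControl and at 13.6, 9.57 and 12.9 FPKM in sgPLOD2 (-0.36 ± 0.13, adjusted p = 0.0558).

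**Figure D3:**
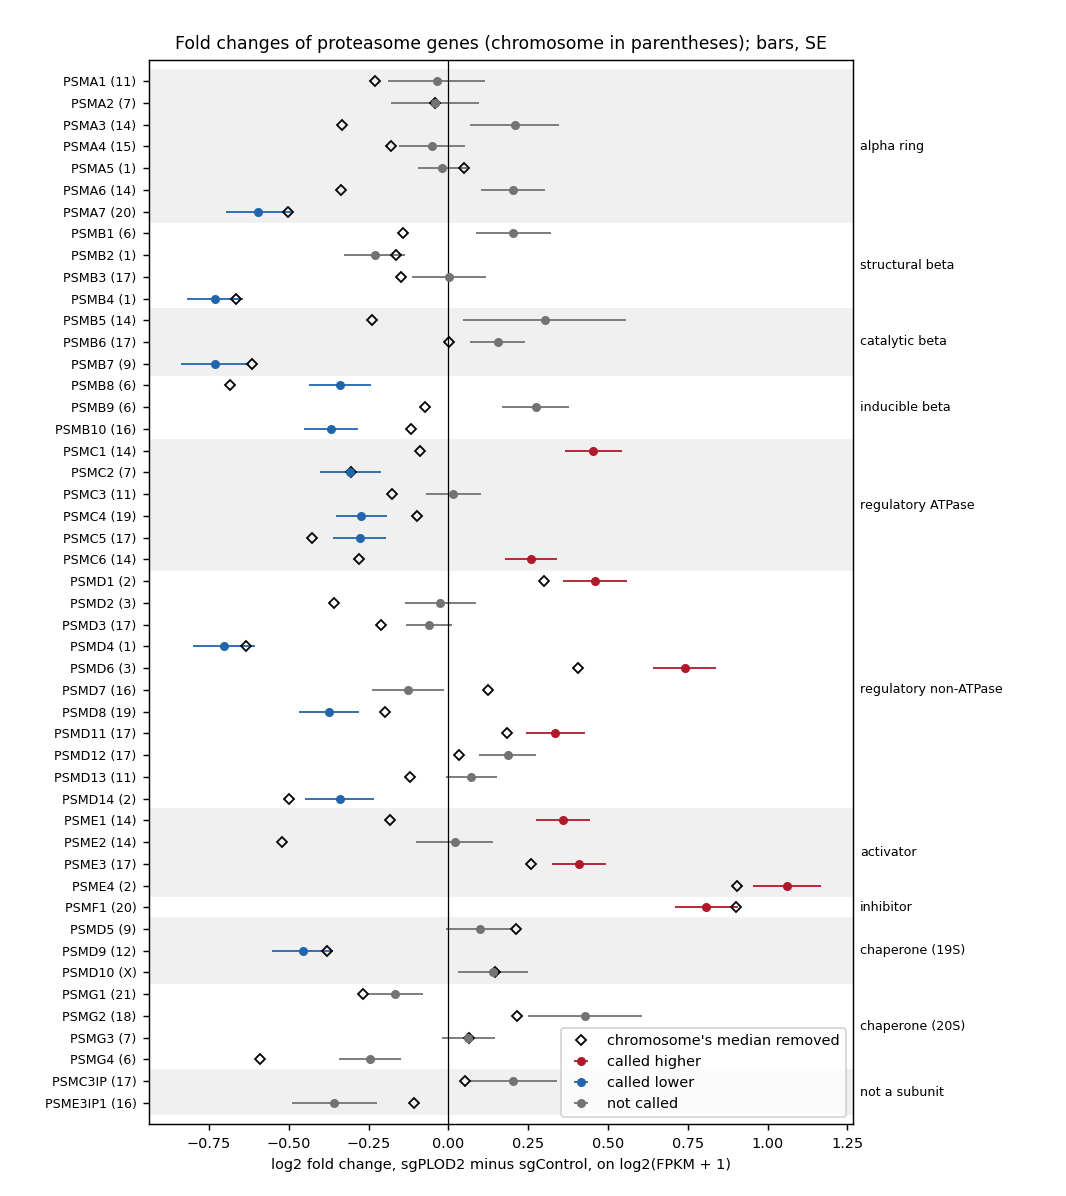
Log2 fold change of each tested gene (circles, with SE; red called higher, blue called lower, grey not called), and the same with the median of its chromosome removed (open diamonds). PSME4, PSMF1 and PSMD6 lie farthest right and PSMB4, PSMB7, PSMD4 and PSMA7 farthest left, and the diamonds of chromosome 14 genes lie left of 0.

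Under the 19 alternative settings in which they could be tested, 5 members kept their call in the lower direction (PSMA7, PSMB4, PSMB7, PSMD4 and PSMD9) and 5 in the higher direction (PSMD1, PSMD6, PSME3, PSME4 and PSMF1); PSME4 was tested in 18 because its mean is under 5 FPKM. None of the 5 inducible genes is among them. Their values still moved by more than 1.5 times in places. With the GC and length trend taken out PSME4 was at 0.65 and PSMA7 at -0.31, with quantile scaling PSMA7 was at -0.36 and PSMB7 at -0.47, and with chromosome medians removed PSMD6 was at 0.41, PSMD1 at 0.30 and PSME3 at 0.26. By sgControl mean, those lower include the most abundant member of the alpha ring, of the catalytic beta subunits and of the structural beta subunits. The 12 members called lower had a median level of 54.3 FPKM and a median length of the longest transcript of 1845 bases, against 21.9 FPKM and 4098 bases for the 9 called higher. Over the 46 tested genes of the proteasome itself, the log2 fold change went with the mean log2 level at a Pearson r of -0.41 and a Spearman rho of -0.36. Over all genes tested the rho was -0.19. With the GC content of the longest transcript, r was -0.28 and rho -0.29 (-0.35 over all genes), and with its length 0.43 and 0.27 (0.33 over all genes). These points are genes of the same 6 libraries and not replicates, so no p is given, and the part of level, length and GC content in the calls was not tested.

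The members' fold changes also went with those of their chromosomes. Against the median log2 fold change of all expressed genes on the chromosome, the 46 members had an r of 0.46 and a rho of 0.55, where all genes tested had a rho of 0.33 (each gene is part of its own chromosome's median). All 7 tested members on chromosome 14 (PSMA3, PSMA6, PSMB5, PSMC1, PSMC6, PSME1 and PSME2) lay between 0.02 and 0.45, and 3 of them were called higher. Since the chromosome's median was 0.54, all 7 were below it. With chromosome medians removed, the members' calls went from 9 higher and 12 lower to 5 higher and 16 lower, where 47.2% of all genes were called (22.9% higher and 24.3% lower), and the members' median became -0.16. The part of chromosome in the calls was not tested.

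**Figure D4:**
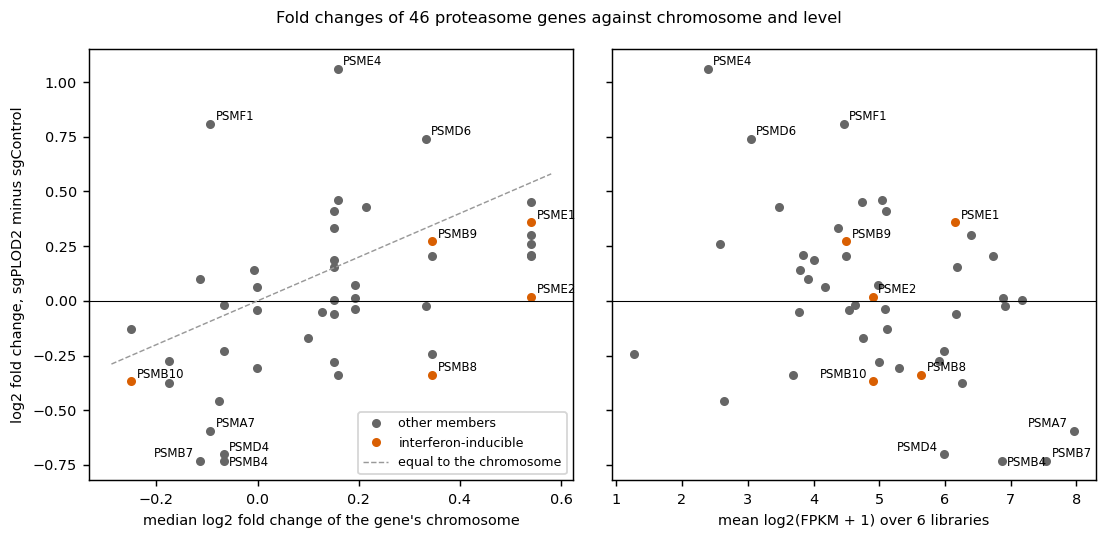
Log2 fold change of 46 proteasome genes against the median log2 fold change of their chromosome (left; the dashed line marks equality) and against their mean log2(FPKM + 1) over 6 libraries (right); orange points are the interferon-inducible genes. The chromosome 14 genes at 0.54 on the left axis lie below the dashed line, and PSMB4, PSMB7, PSMD4 and PSMA7 lie at the bottom right of the right panel with PSME4 at the top left.

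Genes near PSMA7, PSMB7, PSMD4 and PSMB4 mostly lay below 0 as well. PSMA7, at the end of chromosome 20, had 18 tested genes that are not members within 1 Mb, of which 17 had a log2 fold change below 0 (median -0.51, against -0.60 for PSMA7). Of the 10 around PSMB7, 7 were below 0 (median -0.42). PSMD4 and PSMB4 lie 132 kb apart on chromosome 1, so they share most neighbours, of which 24 of 32 and 21 of 29 were below 0 (medians -0.38 and -0.36). Around PSME1 and PSME2 the median of 30 genes was 0.40, and around PSMD6 that of 3 genes was 0.46. PSMF1 and PSME4 stood further from their surroundings, with medians of 0.20 (16 genes) and 0.22 (4 genes). PSMD1, at 0.46, had neighbours with a median of -0.03, of which 8 of 14 were below 0. Of the 25 around PSMD9 (-0.46), 15 were below 0 (median -0.17), and of the 41 around PSME3 (0.41), 13 were (median 0.20). The median over all genes tested was 0.06. Around PSMB8 and PSMB9 the median of 39 genes was 0.14 and around PSMB10 that of 33 genes was -0.17. These are descriptions of neighbouring genes, with no test.

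Genes that work with the proteasome also had members in both directions. A list of 29 partner symbols covered ubiquitin genes, shuttle factors, further subunits, the assembly factor POMP and the NRF1 pathway. It named 28 genes, since a former symbol of a listed gene was also on it, and all were in the table and tested. Of these 28, 8 were higher, 5 lower and 15 not called, with a median of -0.04. That is 46.4% called (28.6% higher and 17.9% lower), against 52.9% of all genes (29.5% and 23.5%). With median-of-ratios scaling 3 were higher and 6 lower (24.5% and 27.6% of all genes). Leaving out replicate 1, 2 or 3 of sgPLOD2 gave 3, 4 and 4 higher and 5, 5 and 4 lower. Without replicate 1, 2545 of all 10440 genes were higher and 2100 lower, and without replicate 2 or 3, 40.2% or 43.2% were called. Leaving out sgControl replicate 1 gave 8 higher and 8 lower (55.9% of all genes called). Leaving out sgControl replicate 2 gave 5 and 4 (2989 and 2234 of all 10491 genes). The 4 with the smallest adjusted p were NGLY1, ADRM1, POMP and SEM1. NGLY1, the deglycosylase that acts on NRF1, stood at 1.29, 1.62 and 1.59 FPKM in sgControl and at 3.57, 3.67 and 2.98 FPKM in sgPLOD2 (0.82 ± 0.10, adjusted p = 0.000793). POMP, which completes the assembly of the core particle, stood at 72.3, 60.8 and 67.7 FPKM in sgControl and at 46.2, 42.3 and 38.8 FPKM in sgPLOD2 (-0.65 ± 0.10, adjusted p = 0.00193). The remaining pair are subunits of the regulatory particle that do not bear a PSM symbol. ADRM1, a ubiquitin receptor, stood at 215, 177 and 189 FPKM in sgControl and at 131, 123 and 127 FPKM in sgPLOD2 (-0.60 ± 0.09, adjusted p = 0.00185). SEM1 stood at 6.42, 5.28 and 5.66 FPKM in sgControl and at 3.52, 3.63 and 3.06 FPKM in sgPLOD2 (-0.62 ± 0.10, adjusted p = 0.00236). The groups of these 4 genes did not overlap. ADRM1 was at -0.04 (adjusted p = 0.732) once the GC and length trend was taken out, and at -0.39 with quantile scaling, and NGLY1 was at 0.48 with chromosome medians removed. The NRF1 gene NFE2L1 was called higher (0.53 ± 0.18, adjusted p = 0.0436), as was the protease that activates NRF1, DDI2 (0.58 ± 0.10, adjusted p = 0.00286). The NFE2L1 call was lost without a filter (adjusted p = 0.112), with median-of-ratios scaling (0.0937), with chromosome medians removed (0.128) and with the GC and length trend taken out (0.0523). It was also lost without sgControl replicate 2 (0.0741) and without replicate 1, 2 or 3 of sgPLOD2 (0.0835, 0.103 and 0.116), and its fold change was 0.32 without sgControl replicate 1. DDI2 was at 0.06 (adjusted p = 0.658) with the GC and length trend taken out. It was at 0.90 with TPM, and at 0.85 with 0.1 in place of 1 added to the FPKM and no rescaling.

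Of 15 genes known to induce the immunoproteasome or to work beside it in antigen presentation, IRF8 was under 1 FPKM. Among the 14 tested, 1 was higher (ERAP2), 8 were lower and 5 were not called, with a median of -0.31. That is 7.14% higher and 57.1% lower, against 29.5% and 23.5% of all genes. With chromosome medians removed 0 were higher and 10 lower (22.9% and 24.3% of all genes), while TPM gave 2 and 4 (35.1% and 17.5%). With the GC and length trend taken out 1 was higher (HLA-C, not ERAP2) and 4 lower (2675 and 2019 of all 10457 genes). Leaving out sgPLOD2 replicate 2 or sgControl replicate 3 gave 0 higher and 4 or 5 lower (40.2% and 44.3% of all genes called). Leaving out sgPLOD2 replicate 1 gave 1 higher and 5 lower (2545 and 2100 of all 10440 genes). Without sgPLOD2 replicate 3 the list had 1 higher and 4 lower (43.2% of all genes called). ERAP2 lost its call with chromosome medians removed (adjusted p = 0.0911), with the GC and length trend taken out (0.803), and without sgControl replicate 3 (0.0627) or sgPLOD2 replicate 2 (0.0668). The 4 with the smallest adjusted p were HLA-B, STAT2, HLA-E and TAP1, all lower. STAT2, which transmits interferon signals, stood at 4.67, 6.87 and 5.58 FPKM in sgControl and at 1.99, 2.50 and 2.48 FPKM in sgPLOD2 (-1.004 ± 0.14, adjusted p = 0.00114). Its groups did not overlap. HLA-B stood at 311, 275 and 292 FPKM in sgControl and at 170.4, 164 and 175 FPKM in sgPLOD2 (-0.78 ± 0.08, adjusted p = 0.000369). HLA-E stood at 98.6, 106 and 113 FPKM in sgControl and at 69.3, 67.2 and 72.0 FPKM in sgPLOD2 (-0.60 ± 0.08, adjusted p = 0.00116). Both are class I HLA genes, and their groups did not overlap. TAP1, a peptide transporter gene beside PSMB9, stood at 39.9, 49.2 and 51.5 FPKM in sgControl and at 29.5, 34.0 and 36.3 FPKM in sgPLOD2, with no overlap (-0.48 ± 0.13, adjusted p = 0.0157), while PSMB9 was at 0.27. The TAP1 call was lost with the GC and length trend taken out (-0.26, adjusted p = 0.128), with TPM (0.0885), without sgControl replicate 3 (0.0533) and without sgPLOD2 replicate 1 (0.0526), and TAP1 was at -0.83 with chromosome medians removed. HLA-B was at -0.40 with the trend taken out and HLA-E at -0.95 with chromosome medians removed, both still called. No test over the list was made.

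**Figure D5:**
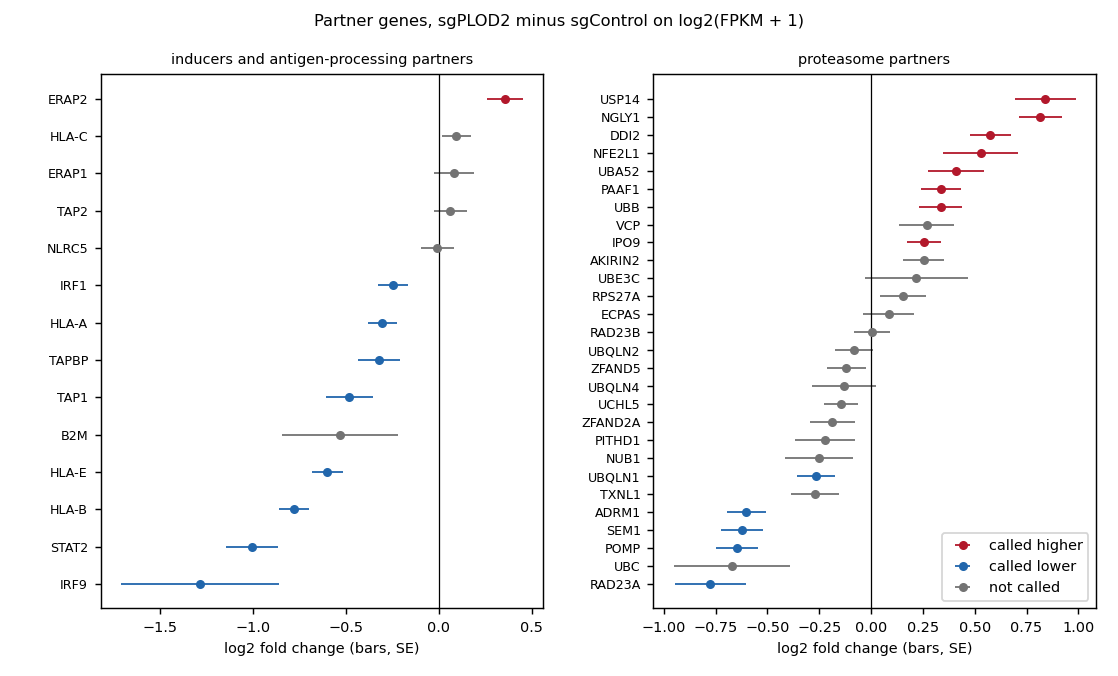
Log2 fold change with SE of the 14 inducers and antigen-processing partners (left) and the 28 proteasome partners (right); red called higher, blue called lower, grey not called. The left panel has 8 genes called lower and 1 called higher, the right panel 5 and 8.

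The authors' deposited table, whose test is not named, gave adjusted p-values for 48 members, with 6 called higher and 15 lower at 0.05, against 18.5% and 17% of its 22870 genes. Those genes go beyond the 10469 that averaged 1 FPKM or more, as all 48 members did, so the shares are of unlike sets. In either direction 35.5% of the 22870 were called there, against 52.9% of the 10469 here. Of the members called by the authors, 6 higher and 12 lower were called in the same direction here, and 0 in opposite directions. PSMB2, PSMG4 and PSME3IP1 were lower in the authors' deposited table and not called here, and PSME1, PSMC6 and PSMD11 were called higher here and not in the authors' deposited table. A further 35 rows of the expression table are PSM pseudogenes, of which 22 were listed at 0 in every library. PSMA6P1 (2.87 to 4.90 FPKM) and PSMC1P1 (2.57 to 5.07 FPKM) reached 1 FPKM, so reads of PSMA6 and PSMC1 may have been split with near-identical copies.

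Library facts that touch these values are few. FPKM summed to between 229485 and 268612 per library, and absolute depth is unknown. Mitochondrial genes held 12.9% of the FPKM in sgControl replicate 1 and 6.01% to 7.50% elsewhere. That library also held the low PSMB5 value, and without it the inducible genes had 1 called higher and 2 lower, and the others 9 and 8 in place of 8 and 10 (55.9% of all genes called). Renal carcinoma markers reached 1 FPKM for 7 of 8, with CA9 listed at 0 in sgControl and at 0.285 to 0.368 FPKM in sgPLOD2. Of 9 leukocyte markers, chosen because leukocytes hold much immunoproteasome, 1 reached 1 FPKM (CD74), CD3E and MS4A1 were listed at 0 in every library, and the summed level was 1.72 to 2.29 FPKM in sgControl and 3.73 to 4.47 FPKM in sgPLOD2, whose part in the results was not tested. Of 3 endothelial markers 0 reached 1 FPKM, and of 4 fibroblast markers COL1A1 did, with DCN at 0 throughout and sums of 0.445 to 0.604 and 2.99 to 3.37 FPKM. In bulk RNA, fewer cells with a transcript and less of it per cell cannot be told apart.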

How the data were processed

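RNA sequencing of 6 libraries (3 sgControl, 3 sgPLOD2) was used as deposited. CASAVA, HISAT2 2.1.0, StringTie 1.3.4 and GRCh38 appear without roles in the submitters' processing notes. How reads were counted, whether strand was used and which annotation served is not given in the sources used here. The deposited table holds an FPKM value for each gene and library, per the file headers, with no scaling between libraries recorded. It also holds the authors' comparison of the groups: a mean normalized count (a signal without per-library values), a log2 fold change, a test score and p-values.

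Genes averaging 1 FPKM or more (10469) were tested on log2(FPKM + 1). The fit used limma 3.58.1 (R 4.3.3; eBayes with an intensity trend, 2-sided, Benjamini-Hochberg adjustment over all of these genes, threshold 0.05). A fold change is the sgPLOD2 mean minus the sgControl mean on that scale, which understates changes of low genes. Log2 ratios of 3 subunit pairs, also with 1 FPKM added, were compared by exact permutation (scipy 1.17.1), and shares used FPKM as deposited. No count test was run because whole reads could not be recovered, and intervals for counting error cannot be had without the depth. A value of exactly 0 may be a failed estimate.

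The fit was tested on simulated data of the same 10469 genes: 28.4% of 67 genes changed by 0.5 (log2), 73.1% of 67 changed by 1 and 93.9% of 66 changed by 2 were recovered, and 5.80% of calls were false. Only these genes were changed in the simulation, whereas 52.9% of all genes were called in the data. With fewer changed genes the Benjamini-Hochberg adjustment sets a stricter cutoff on p. These rates thus show that the fit ran as intended and do not give the recovery in the data. Gene spans came from the deposited table. All 50 members were found in GENCODE 29, 13 with the same start and end, and transcript length and GC content were taken from it.

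All members are named. Full values are given for PLOD2, the inducible genes, their catalytic counterparts, the highest and lowest fold change of each role, and the 4 smallest adjusted p of each partner list. Of these lists and the cell type markers, 2 genes are not reported here. Other genes (ERAP2, NFE2L1, DDI2) were chosen after their values were seen. The members, lists and tests were chosen with earlier results of these data known. The alternatives tried were 2 other pseudocounts (0.1 and 0.5), testing without a filter, a filter at 5 FPKM, TPM, median-of-ratios and quantile scaling, 2 variance models, a replicate block, removal of chromosome medians, removal of a GC and length trend (mgcv 1.9.3), leaving out each library, and, added after seeing the data, TPM without mitochondrial and ribosomal protein genes.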

Additional observations from a re-analysis of the deposited data

How the results depend on the processing

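The cause of each change below was not tested. Of the 43 genes that are not interferon-inducible, 8 were higher (5 with chromosome medians removed, 6 to 9 without each library in turn) and 10 lower (6 with TPM, 6 with TPM without mitochondrial and ribosomal protein genes, 5 to 10 without each library in turn). The 5 came without sgPLOD2 replicate 2, and 6 without sgControl replicate 3 or sgPLOD2 replicate 3. Of the 5 inducible genes, 1 was higher (2 with TPM, with quantile normalization and with TPM without mitochondrial and ribosomal protein genes; 0 with median-of-ratios scaling and with chromosome medians removed) and 2 lower (1 with TPM and with quantile normalization, 0 once a GC and length trend was removed, 1 to 2 without each library in turn). Of all genes, 29.5% were higher and 23.5% lower (22.9% and 24.3% with chromosome medians removed, 35.1% and 17.5% with TPM, 24.5% and 27.6% with median-of-ratios scaling). The counts were 2722 and 2738 of 10469 with quantile normalization, and 2675 and 2019 of 10457 without the GC and length trend. Leaving out single libraries, 40.2% (without sgPLOD2 replicate 2) to 55.9% (without sgControl replicate 1) were called. The median of all genes moved from 0.060 to 0.20 with TPM and to 0.16 with TPM without mitochondrial and ribosomal protein genes. PLOD2 kept its call throughout. Over all tested members and other named genes, fold changes gained a call in 32 cases, lost it in 79 and were called in the other direction in 1 (PSMC6 with chromosome medians removed).

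Changes of sign against the reported log2 fold change were as follows, most of them close to 0. Removing chromosome medians turned PSMA3 to -0.33, PSMA5 to 0.048, PSMA6 to -0.34, PSMB1 to -0.14, PSMB3 to -0.15, PSMB5 to -0.24, PSMB9 to -0.073, PSMC1 to -0.088, PSMC3 to -0.18, PSMC6 to -0.28, PSMD13 to -0.12, PSMD7 to 0.12, PSME1 to -0.18, PSME2 to -0.52 and the PSMB9 to PSMB6 ratio to -0.076. Of these, PSMA6 (adjusted p = 0.0290), PSMC6 (0.0274) and PSME2 (0.0113) were then called lower. TPM scaling turned PSMA1 to 0.094, PSMA2 to 0.085, PSMA4 to 0.074, PSMA5 to 0.11, PSMD2 to 0.11, PSMD3 to 0.070 and PSMD7 to 0.0013. TPM without mitochondrial and ribosomal protein genes turned PSMA1 to 0.055, PSMA2 to 0.046, PSMA4 to 0.036, PSMA5 to 0.073, PSMD2 to 0.067 and PSMD3 to 0.031. Quantile normalization turned PSMA1 to 0.075, PSMA2 to 0.042, PSMA5 to 0.076, PSMD2 to 0.14 and PSMD3 to 0.077. Median-of-ratios scaling turned PSMB3 to -0.096, PSMC3 to -0.085, PSMD13 to -0.025, PSME2 to -0.077 and PSMG3 to -0.033. Taking out the GC and length trend turned PSMA1 to 0.031, PSMA6 to -0.015, PSMB10 to 0.034, PSMD12 to -0.0043, PSMD2 to 0.046, PSMD3 to 0.0061 and PSMD5 to -0.055. Without each library in turn, the sign also turned for some fold changes: PSMA1 from -0.17 to 0.071, PSMA2 from -0.14 to 0.073, PSMA4 from -0.13 to 0.020, PSMA5 from -0.046 to 0.012, PSMB3 from -0.097 to 0.076, PSMB5 from -0.022 to 0.50, PSMC3 from -0.031 to 0.062, PSMD2 from -0.13 to 0.032 and PSME2 from -0.054 to 0.13.

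The replicate numbers are not stated to pair the libraries: deviations of same-numbered libraries correlated at 0.014, 0.14 and -0.049. With the number as a block (replicate block), 8 of the other genes were higher and 9 lower, and the inducible genes had 1 higher and 2 lower. PSMC6 and PSMC5 then lost their calls (adjusted p = 0.0580 and 0.0578) and PSMG2 gained one in the higher direction (0.0488). The block moved the calls of all genes from 3084 higher and 2456 lower to 2984 and 2335.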
